A study of Mus musculus with 26 samples.

Results

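Whole lung carrying melanoma metastases was compared between mice given propranolol and untreated mice, across all genes. The 10 whole lung libraries of a series of 26 were used, and they were chosen by their titles: 5 labelled propranolol and 5 labelled as having had no treatment. All came from C57BL/6 mice injected into a vein with B16F10, a mouse melanoma cell line that forms nodules in the lung, so the untreated libraries are also tumour-bearing and no healthy lung is among the groups. Poly(A) RNA was sequenced. The labels used here give no dose, duration, age or sex. Nor do they tie a library to an animal of its own, and the spread behind each p-value may therefore be partly technical. From the same series, 4 propranolol and 4 untreated libraries labelled lung monocytes were used for a single test of a difference between kinds of material.

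Propranolol blocks the β-adrenoceptors, which pass the signal of adrenaline and noradrenaline to the cyclic AMP pathway. In lung these receptors are known on airway smooth muscle, alveolar epithelium, endothelium and leukocytes. A lung with melanoma nodules is a mixture of tumour cells, which carry pigment genes, and of resident and immune cells. Sequencing counts are shares of a library, so a smaller share of tumour RNA raises the share of everything else. Bulk counts cannot tell fewer cells of a type from less RNA per cell, and this holds for every result given here.

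The depth of the propranolol libraries was 29650148 to 43447855 counts, and that of the untreated libraries 33232082 to 47618634 counts. The melanocyte list, 13 genes of pigment cells, took 0.768, 0.374, 0.183, 0.0959 and 0.904% of the counts in propranolol libraries 1 to 5. In the untreated libraries it took 2.10, 1.74, 1.40, 1.90 and 1.76%. The groups did not overlap, and the treated libraries varied widely among themselves, with libraries 3 and 4 lowest. The resident lung list, 49 genes of endothelium, alveolar type 1 and type 2 cells, smooth muscle and pericytes, took 2.54 to 3.97% with propranolol and 1.35 to 2.32% in untreated lungs, without overlap. All 49 were among the genes tested. The genes with at least 1 count numbered 27647 to 29120 with propranolol and 24138 to 26780 in untreated lungs. The Y-linked genes Ddx3y, Eif2s3y, Kdm5d and Uty were at 0 in all 10 libraries.

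**Figure D1:**
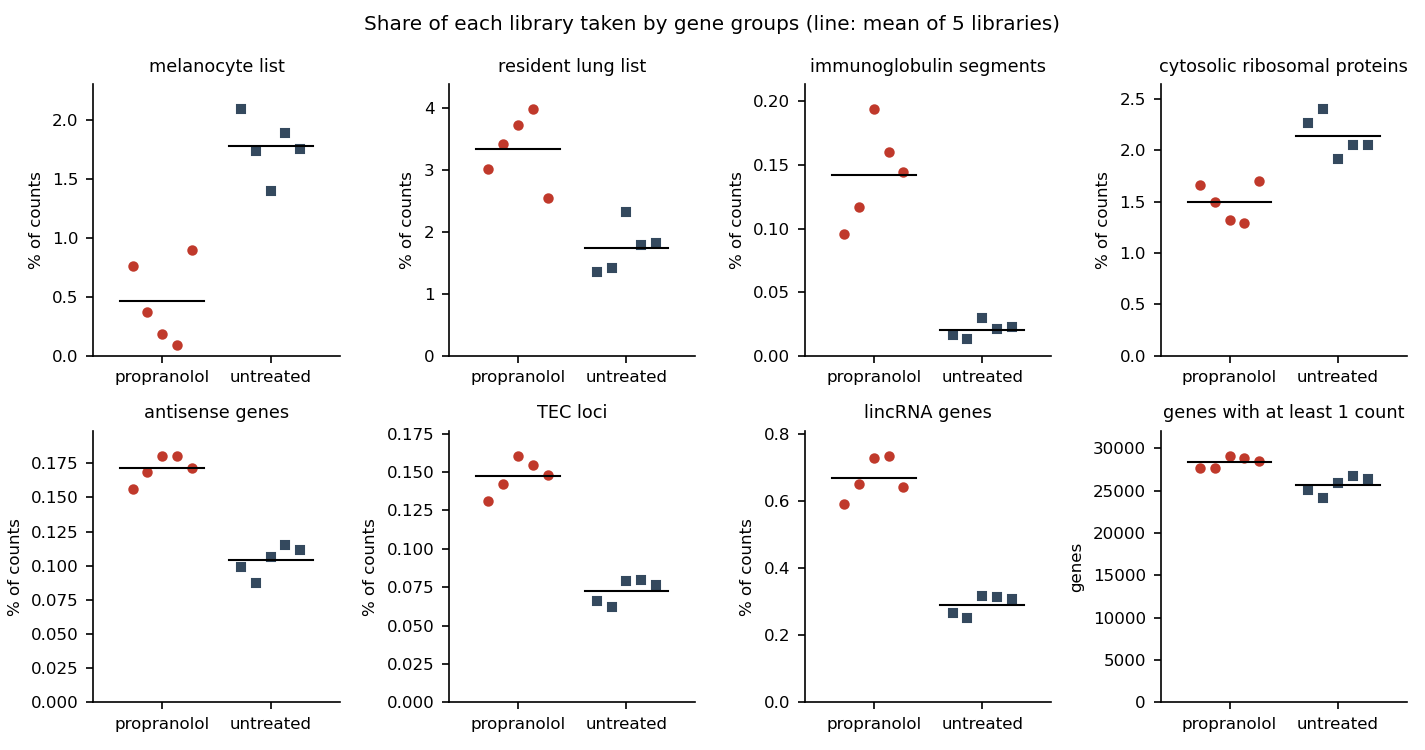
Share of each library taken by groups of genes (% of counts), and the number of genes with at least 1 count, in 5 propranolol and 5 untreated whole lung libraries. Each point is a library and the line is the mean of 5. Only the melanocyte list and the cytosolic ribosomal protein genes are lower with propranolol among the 8 panels, and no panel shows overlap between the groups.

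Of 55416 genes listed, 18639 had enough counts to be tested. With libraries scaled by TMM, a method that assumes most genes do not change, 6614 genes (35.5%) were higher and 6575 (35.3%) lower with propranolol at an adjusted p below 0.05, together 70.8% of those tested (edgeR's quasi-likelihood test, Benjamini-Hochberg adjustment). The median change of all tested genes was 0.03 on the log2 scale. Of the 13 melanocyte genes, 12 were lower and Bcan was higher, and their median log2 change was -2.04. Tyrp1, an enzyme of melanin synthesis, had 1626, 807, 423, 220 and 1881 CPM with propranolol (CPM, TMM-scaled counts relative to library size), against 6184, 5176, 3548, 5119 and 4610 CPM in untreated lungs. Dct, Pmel and Mlana, also pigment genes, were lower by 1.97, 2.21 and 1.93 log2 units. CPM sums over a list, CPM thresholds and the CPM of monocyte-labelled libraries are given without TMM scaling. The lung markers Sftpc of alveolar type 2 cells, Cdh5 of endothelium and Ager of alveolar type 1 cells were higher by 0.75, 0.71 and 0.63. Bcan encodes a matrix proteoglycan that is also made outside pigment cells, and the resident list had a median of 0.74.

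To find changes that exceeded these shifts, the libraries were scaled again on each list. Scaled so that the melanocyte list had the same mean log count in every library, 17373 genes were higher and 16 lower, and the median gene rose by 2.65 log2 units. A gene lower both there and under TMM fell by more than the mean of the melanocyte list did. There were 16 such genes, 0.0858% of those tested and 0.243% of those lower under TMM. That mean includes Bcan, which rose, and the list's own median on this scale was -0.23. With Bcan left out of the list, 12 of the 16 remained. Of the 16, 13 were lower without overlap between the groups, against 28.9% of all tested genes. The 16 were chosen as lower in the same libraries, so this separation is no support for their fall. Among all tested genes 6575 were called lower under TMM and 5386 were lower without overlap. This scaling is imprecise: the SE of Tuba1a, an abundant tubulin, was 0.59 on it and 0.07 under TMM, so falls of moderate size beyond the list were not detectable. In simulated data, false calls of a fall beyond the list exceeded the share that the adjusted p threshold allows, so the adjusted p of these falls may be too small. Several of the 16 genes are near 0 counts with propranolol, where the fitted change depends on the prior count. Scaled on the resident list, 1848 genes (9.91%) were higher and 10720 (57.5%) lower, with a median of -0.72. A gene higher there and under TMM rose by more than the resident lung markers, and 1843 genes did (9.89% of those tested, 27.9% of those higher under TMM). All 6575 genes lower under TMM were also lower under resident scaling, whereas 582 of the genes higher under TMM were lower there. The remaining 16780 genes were called beyond neither list, which does not place them between the lists.

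Ordered by p on the melanocyte scale, Cck, Reg3g, Mgarp, Bpifb1 and Bpifa1 came first among the 16 genes that fell beyond the melanocyte list, and no grouping of the 16 was tested. Bpifa1, Bpifb1, Reg3g and Gp2 encode proteins known from mucosal surfaces. Bpifb1, a secreted airway defence protein, had 0.871, 0.950, 0.690, 0.220 and 0.708 CPM in propranolol libraries 1 to 5, against 13.2, 15.5, 4.87, 48.5 and 22.6 CPM in untreated libraries 1 to 5. The groups lay far apart, and untreated library 4 was the highest. Its log2 change was -4.96 ± 0.61 (SE, adjusted p = 0.000122), and -2.63 ± 0.66 scaled on the melanocyte list (adjusted p = 0.000264). Bpifa1, its relative in the same family, had 1.46, 0.570, 0.194, 0.154 and 0.0944 CPM with propranolol, against 5.68, 5.19, 1.95, 32.7 and 11.1 CPM in untreated lungs. These groups did not overlap either, and again untreated library 4 was highest. Its change was -4.61 ± 0.90 under TMM (adjusted p = 0.00103) and -2.46 ± 0.71 scaled on the melanocyte list (adjusted p = 0.0012). Reg3g, an antibacterial lectin of mucosal epithelium, had 8 counts in all in the 5 propranolol libraries and 575 in the 5 untreated ones. It was at 0 in propranolol libraries 2 and 5, and its fall beyond the list was -3.75 ± 0.87 (adjusted p = 0.000101). Gp2, a glycoprotein of the M cells that sample the mucosal surface, had 6 counts with propranolol and 148 in untreated lungs, and fell by 2.89 on that scale. Sprr1a, a protein of the cornified envelope of squamous epithelium, averaged 0.203 ± 0.069 CPM with propranolol and 4.30 ± 5.47 CPM in untreated lungs (SD, n = 5 each). Untreated library 2 alone held 13.96 CPM, and without that library, or with limma-voom, Sprr1a no longer fell beyond the list.

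None of the 9 tested genes of the airway list fell beyond the melanocyte list. Of these 9, 5 were higher and 2 lower with propranolol, and the list summed to 8460 to 16900 CPM with propranolol and 2580 to 9260 CPM in untreated lungs. Scgb1a1, the main secretory protein of club cells, averaged 11300 ± 3440 CPM with propranolol and 6070 ± 2510 CPM in untreated lungs (SD, n = 5 each; log2 change 0.90 ± 0.34, adjusted p = 0.0316). The ciliated cell genes Ccdc39, Tppp3, Dnah5 and Foxj1 were also higher under TMM, by 0.62 to 1.14 log2 units. None of the 9 rose beyond the resident list. Under resident scaling Scgb1a1 changed by 0.18 (adjusted p = 0.508) and the ciliated cell genes by -0.13 to 0.41 log2 units. Muc5b, the gel-forming mucin of airway glands, had 3.92 to 6.47 CPM with propranolol and 18.8 to 76.8 CPM in untreated lungs, and was lower without overlap (adjusted p = 0.000108). Scgb3a1, a secretoglobin of upper airway secretory cells, fell by 3.12 ± 0.58 (adjusted p = 0.000752). Neither Muc5b nor Scgb3a1 fell beyond the melanocyte list (adjusted p = 0.515 and 0.178). The part that airway content has in these values was not tested.

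Mgarp, Cck, Nts and Aire fell beyond the list as well. Mgarp, a protein of mitochondria in steroid-producing and other tissues, had 0.684, 0.602, 0.453, 0.0879 and 1.11 CPM with propranolol, against 23.0, 22.3, 6.49, 12.7 and 11.7 CPM in untreated lungs. Set against the summed melanocyte counts of its own library, it stood at 0.945 to 2.64 per 10000 with propranolol and 4.48 to 11.8 in untreated lungs, still without overlap. Its change was -4.71 ± 0.52 under TMM (adjusted p = 8.18e-05) and -2.72 ± 0.66 on the melanocyte scale (adjusted p = 0.00017). Cck, the precursor of the peptide hormone cholecystokinin, had no count in propranolol libraries 1 to 4 and 4 counts in library 5, against 54, 116, 54, 42 and 26 counts in the untreated libraries. Its adjusted p on the melanocyte scale was 1.43e-05. Nts, the precursor of neurotensin, had 15 counts with propranolol and 439 in untreated lungs, and fell by 2.62 ± 0.83 beyond the list (adjusted p = 0.00289). Aire, a regulator that drives expression of tissue antigens in thymus epithelium, had 0.373, 0.507, 0.388, 0.176 and 0.826 CPM with propranolol, against 10.9, 15.8, 3.95, 4.79 and 4.55 CPM in untreated lungs. Its ratio to the melanocyte counts was 0.515 to 2.26 with propranolol and 2.39 to 8.38 in untreated lungs. Aire fell by 1.99 ± 0.67 beyond the list (adjusted p = 0.00477), and without untreated library 2 this missed the threshold (adjusted p = 0.0506). Of 5 tested thymocyte genes 3 were higher and 2 lower, and the list summed to 63.5 to 80.1 CPM with propranolol and 40.1 to 66.9 CPM in untreated lungs. Most of that sum was Tcf7, a higher gene, which averaged 52.0 CPM with propranolol and 40.7 CPM in untreated lungs. The 2 lower genes were Rag1 and Dntt, of receptor gene rearrangement, with overlapping groups and untreated library 3 highest. Rag1 averaged 0.542 CPM with propranolol and 3.24 CPM in untreated lungs, and Dntt 0.258 and 1.06 CPM in the same order. The part that thymus content has in the values of Aire was not tested.

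Of 8 tested genes of the cardiac list, Myh6 alone fell beyond the melanocyte list. Myh6, the atrial myosin heavy chain, had 2.58, 0.380, 0.0863, 0.110 and 9.11 CPM with propranolol, against 14.5, 0.228, 25.1, 86.4 and 24.9 CPM in untreated lungs. The groups overlapped, because untreated library 2 held almost none and propranolol library 5 stood above the rest of its group. The change was -3.62 ± 1.27 under TMM (adjusted p = 0.0238) and -2.33 ± 0.74 beyond the melanocyte list (adjusted p = 0.0027). The call was lost without untreated library 4, without propranolol library 2 and with limma-voom. Mb, which encodes myoglobin, and Csrp3, a muscle LIM protein, are outside that list and fell beyond the melanocyte list with overlapping groups and the same highest untreated library. The call of Mb was lost with limma-voom, with the replicate block and without untreated library 4, and that of Csrp3 held in 5 of 16 other settings. Under TMM, 5 of the 8 genes of the cardiac list were lower (62.5%, against 35.3% of all tested genes) and none higher. On the melanocyte scale the median of the list was 1.32, and its 7 genes other than Myh6 had values of 0.13 to 3.68. The list summed to 35.1 to 75.7 CPM with propranolol and 13.7 to 206 CPM in untreated lungs. The part that cardiac muscle content has in these values was not tested.

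The other genes of the 16 were Cited1, Ogdhl, Chl1 and Gm2546. Cited1, a transcriptional co-regulator known in melanocytes, had 25.2, 11.4, 5.37, 2.57 and 31.0 CPM with propranolol, against 186, 175, 81.3, 132 and 118 CPM in untreated lungs. It followed the melanocyte genes across the treated libraries, but its ratio to them was 28.2 to 37.1 per 10000 melanocyte counts with propranolol and 56.1 to 92.6 in untreated lungs. The fall of Cited1 beyond the list was lost under each of the other forms of melanocyte scaling tried, among them the list without Bcan. Ogdhl, a relative of the oxoglutarate dehydrogenase of the citric acid cycle, averaged 1.31 ± 0.59 CPM with propranolol and 17.3 ± 6.0 CPM in untreated lungs (SD, n = 5 each). Its call held in 10 of 17 other settings and was lost under those same forms of scaling. Chl1, a neural adhesion molecule, rested on untreated library 2 with 24.2 CPM, and its call held in 4 of 16. Gm2546 is a predicted gene with 4 counts with propranolol and 75 in untreated lungs, and its call held in 11 of 16. Bpifa1, Bpifb1, Mgarp, Reg3g, Gp2, Nts and Cck fell beyond the list in every setting in which they could be tested, 16 or 17 each. In a fit that also held each library's melanocyte level, 4 of the 16 were still lower by the test (Mgarp, Nts, Aire and Ogdhl) and 15 were lower in sign, the exception being Myh6. The groups did not overlap in that covariate, so treatment and melanocyte level cannot be fully told apart.

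**Figure D2:**
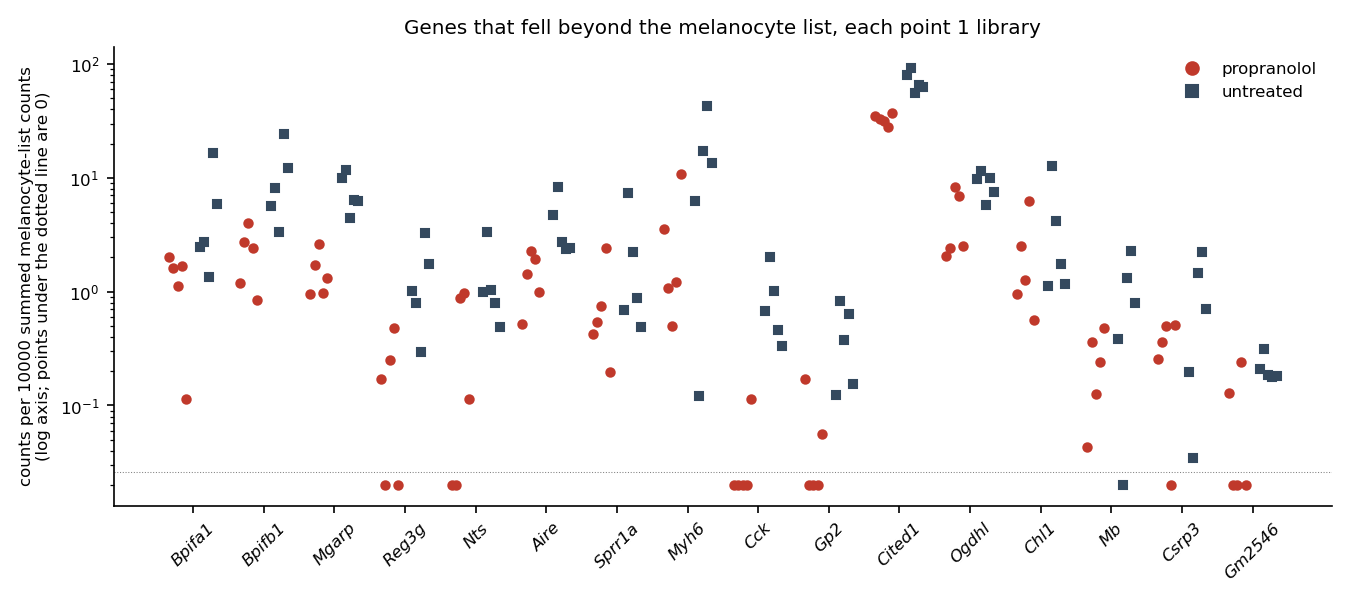
Counts of the 16 genes that fell beyond the melanocyte list, per 10000 summed melanocyte-list counts of the same library (log axis, points under the dotted line are 0), in 5 propranolol and 5 untreated whole lung libraries, each point a library. The groups do not overlap for Mgarp, Aire, Cited1 and Cck, and they overlap for the other 12.

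Ordered by p under resident scaling, Arhgap4, BE692007, Mirt1 and Nlrp1b came first among the named genes that rose beyond the resident lung list, followed by H2-Ob, Siglecg and Bank1, which are known from B cells. All 7 had an adjusted p of 0.000275. Siglecg, an inhibitory lectin of B cells, had 14.9, 14.9, 20, 21.3 and 16.2 CPM with propranolol, against 2.07, 2.87, 2.89, 3.06 and 3.56 CPM in untreated lungs. Every treated library exceeded every untreated one. Its log2 change was 2.59 ± 0.17 under TMM (adjusted p = 2.7e-05) and 1.85 ± 0.18 under resident scaling (adjusted p = 0.000275). Bank1, a scaffold of B cell receptor signalling, averaged 13.3 ± 1.9 CPM with propranolol and 2.94 ± 0.72 CPM in untreated lungs, and H2-Ob, a chain that limits peptide loading in B cells, averaged 33.3 ± 6.6 and 7.76 ± 1.93 CPM in the same order (SD, n = 5 each). Of the 12 genes of the B cell list, 12 rose beyond the resident list (against 9.89% of all tested genes), with a median of 1.95 under TMM and 1.20 under resident scaling, and the list summed to 405 to 616 CPM with propranolol and 76.2 to 172 CPM in untreated lungs.

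Nlrp1b, an inflammasome sensor, had 6.22, 7.03, 7.10, 8.86 and 5.92 CPM with propranolol, against 1.21, 1.24, 1.76, 1.31 and 1.45 CPM in untreated lungs, a rise of 1.60 ± 0.15 under resident scaling. Arhgap4, a GTPase-activating protein of blood cells, averaged 31.6 ± 5.6 CPM with propranolol and 6.71 ± 1.57 CPM in untreated lungs (SD, n = 5 each). Mirt1, a long non-coding RNA named for myocardial infarction, and BE692007, an uncharacterised transcript, rose by 2.06 ± 0.19 and 1.79 ± 0.15 under resident scaling. The groups of none of these genes overlapped, against 23.6% of all tested genes that were higher without overlap. These genes were chosen by the smallest p in the same libraries, so this separation is no support for their rise. All 8 tested genes of the neutrophil list (median 2.27 under TMM and 1.54 under resident scaling), 7 of 8 of the NK cell list and 8 of 12 of the T cell list rose beyond the resident list. Of the 12 genes of the monocyte and macrophage list, which holds Ccr2, 4 rose beyond it and 2 were lower under resident scaling. The median of that list was 0.68 under TMM and -0.07 under resident scaling. Of the 1843 genes, 681 (37%) were also higher by the test with the melanocyte covariate, where 1040 of all 18639 tested genes were higher. The 1843 were chosen in the same libraries, so this overlap is no support for their rise.

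**Figure D3:**
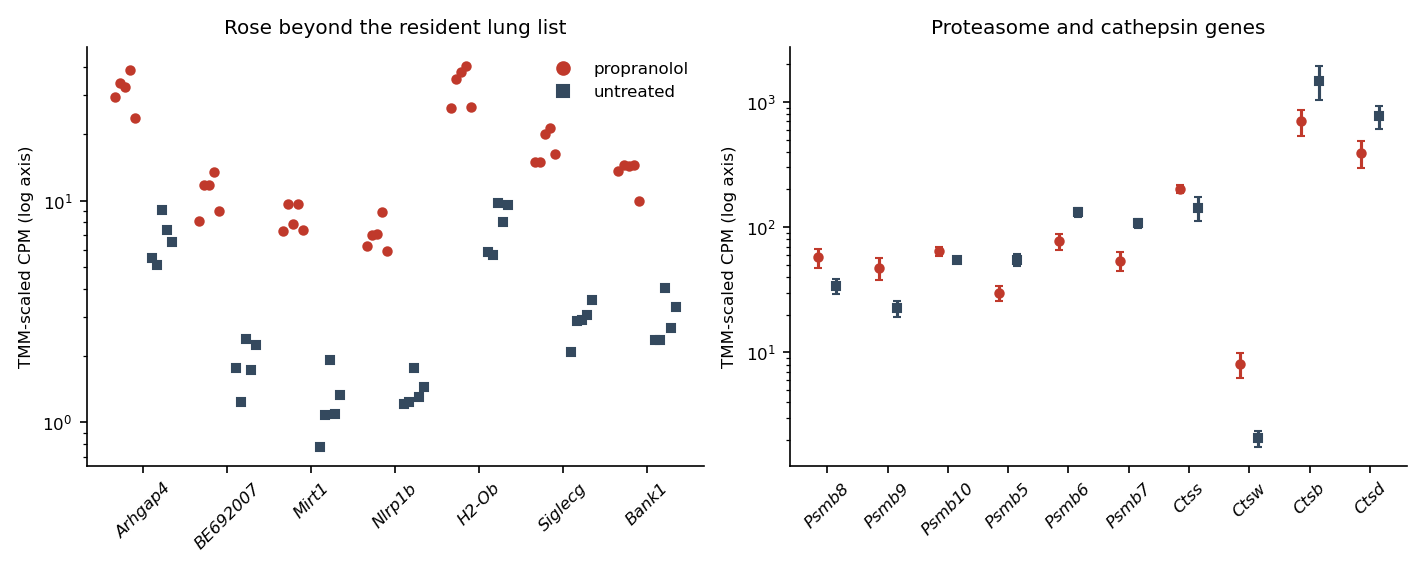
Left, TMM-scaled CPM (log axis) of the 7 genes named among those that rose beyond the resident lung list, each point a library. Right, mean and SD over 5 libraries of proteasome and cathepsin genes; the left point of each pair is propranolol and the right one untreated. The groups of the 7 genes do not overlap, and on the right Psmb8, Psmb9, Psmb10, Ctss and Ctsw are higher with propranolol while Psmb5 to Psmb7, Ctsb and Ctsd are lower.

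Gene classes defined by shared symbol stems show which families moved together. Of 98 classes with at least 10 tested members, 60 had a median above 0 under TMM and 19 under resident scaling. The highest medians were those of immunoglobulin segments, killer lectin-like receptors, T cell receptor segments, H2 genes, the Ms4a family, NLR proteins, chemokine receptors and olfactory receptors. Of 123 tested immunoglobulin segments, 108 were higher and none lower with propranolol, with a median log2 change of 2.72, and 96 rose beyond the resident list. They took 0.0959 to 0.194% of the counts with propranolol and 0.0132 to 0.0302% in untreated lungs. Igha, the heavy chain constant region of mucosal antibodies, had 260, 386, 399, 336 and 289 CPM with propranolol, against 61.0, 45.8, 71.9, 68.6 and 82.7 CPM in untreated lungs. Ighd, carried by naive B cells, averaged 38.5 ± 5.8 CPM with propranolol and 8.98 ± 1.55 CPM in untreated lungs (SD, n = 5 each). Immunoglobulin segments resemble each other closely, so counts of single segments are uncertain.

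All 22 tested killer lectin-like receptors, which NK cells use to sense class I molecules, were higher (median 1.62), and 18 rose beyond the resident list. Klrd1 had 5.78, 7.06, 7.75, 7.19 and 4.58 CPM with propranolol, against 1.32, 1.79, 1.97, 1.33 and 2.05 CPM in untreated lungs. The pseudogene Klra13-ps, which may share reads with its close relatives, averaged 3.10 ± 0.51 CPM with propranolol and 0.451 ± 0.112 CPM in untreated lungs (SD, n = 5 each). Of 12 tested T cell receptor segments 9 were higher (median 1.33) and 4 rose beyond the resident list. The constant region Trbc1 averaged 5.67 ± 1.67 CPM with propranolol and 1.76 ± 0.51 CPM in untreated lungs, and Trac averaged 7.36 ± 1.34 and 3.001 ± 1.035 CPM in the same order (SD, n = 5 each).

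Among H2 genes, the mouse major histocompatibility complex, 26 of 27 were higher (median 1.29) and 15 rose beyond the resident list. The class II chain H2-Aa, which did so, averaged 391 ± 72 CPM with propranolol and 172 ± 27 CPM in untreated lungs, and H2-Ab1, which did as well, 493 ± 103 and 210 ± 34 CPM in the same order (SD, n = 5 each). The class II gene H2-DMb1 did not (0.25 under resident scaling, adjusted p = 0.105). The classical class I genes did not: H2-K1 and H2-D1 were higher under TMM by 0.79 and 0.58 log2 units but changed by 0.04 and -0.17 under resident scaling (adjusted p = 0.816 and 0.376). H2-Q5, a class I relative, rose by 1.21 ± 0.13 on that scale. Genes of this complex are close copies, and reads could be split between them. Nlrc5, a regulator of class I genes of the NLR family, averaged 62.1 ± 6.0 CPM with propranolol and 29.2 ± 5.4 CPM in untreated lungs (SD, n = 5 each).

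The NLR proteins are cytosolic sensors of infection and damage. Of 16 tested, 15 were higher (median 1.21) and 8 rose beyond the resident list, Nlrp3, Nlrp12, Nlrc3, Naip5 and Naip6 among them. Naip5, a sensor of bacterial flagellin, had 12.7, 16.1, 14.1, 13.5 and 11.9 CPM with propranolol, against 2.73, 3.78, 5.33, 3.64 and 3.23 CPM in untreated lungs. The Ms4a family had 9 of 12 higher (median 1.27), and 8 rose beyond the resident list. Ms4a1, the B cell antigen CD20, averaged 19.2 ± 2.8 CPM with propranolol and 5.89 ± 1.53 CPM in untreated lungs (SD, n = 5 each), Ms4a6b averaged 24.8 ± 5.8 and 8.37 ± 2.11 CPM in the same order, and Ms4a2, a chain of the IgE receptor of mast cells and basophils, rose by 1.69 log2 units under resident scaling. Ms4a4c and Ms4a6c rose beyond the list too. The members that did not pass the test under TMM were Ms4a4a, Ms4a7 and Ms4a6d, with changes of 0.72, 0.14 and 0.02 log2 units (adjusted p = 0.0722, 0.394 and 0.948).

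Of 22 chemokine receptor genes, which guide leukocyte migration, 15 were higher (median 1.17) and 9 rose beyond the resident list. Ccr2, the receptor of inflammatory monocytes, had 72.2, 99.0, 101, 90.8 and 53.0 CPM with propranolol, against 16.2, 18.8, 26.6, 20.3 and 20.1 CPM in untreated lungs. Cxcr2, the receptor of neutrophils, averaged 7.66 ± 1.41 CPM with propranolol and 2.49 ± 0.47 CPM in untreated lungs (SD, n = 5 each). Ccr6 of B cells and Ccr3 of eosinophils had log2 changes of 2.23 and 4.21. Ccr3 varied widely among treated libraries, with 5.92 ± 5.39 CPM with propranolol and 0.322 ± 0.154 CPM in untreated lungs (SD, n = 5 each). It was not called with the melanocyte covariate (adjusted p = 0.13). Cxcr3, the receptor of type 1 effector T cells, averaged 5.67 ± 1.43 CPM with propranolol and 6.55 ± 1.73 CPM in untreated lungs, and Cxcr4 55.0 ± 7.7 and 56.9 ± 34.1 CPM in the same order; neither passed the test (SD, n = 5 each; adjusted p = 0.406 and 0.898). Ccr1 did not pass it either (adjusted p = 0.75).

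Olfactory receptors, which the lung is not known to use for smell, also ranked among the highest classes. Their counts summed to 1170 to 2159 with propranolol and 535 to 901 in untreated lungs, and only 15 genes of the class were tested. Of these 11 were higher and Olfr1417 was lower (median 1.17). Olfr1372-ps1, a pseudogene, averaged 9.81 ± 1.80 CPM with propranolol and 2.92 ± 0.48 CPM in untreated lungs, and Olfr1033 averaged 5.20 ± 1.02 and 2.40 ± 0.41 CPM in the same order (SD, n = 5 each). Olfr1033 did not rise beyond the resident list (adjusted p = 0.119).

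Adrenoceptor genes, whose β members encode the targets of the drug, were examined with their values already known. Of 7 such genes, 4 were higher and none lower (against 35.5% and 35.3% of all tested genes), and 3 rose beyond the resident list (against 9.89%). Adrb1, a β-adrenoceptor best known from heart, had 58.8, 62.6, 74.2, 83.9 and 52.4 CPM with propranolol, against 24.4, 8.48, 45.8, 36.0 and 34.6 CPM in untreated lungs, and did not exceed the resident list (adjusted p = 0.126). The β-adrenoceptor gene Adrb3 and the α1-adrenoceptor genes Adra1a and Adra1d were higher beyond it (adjusted p = 0.00844, 0.0122 and 0.0092). Adra1b, Adra2a and Adra2b did not pass the test under TMM, and Adra2a was lower under resident scaling (-1.18, adjusted p = 0.00259). Untreated library 2 had the lowest value of Adrb1, Adrb3, Adra1a and Adra1d, and it also had the second lowest resident list share.

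TEC loci and antisense, sense intronic and lincRNA genes were higher more often than lower, and processed pseudogenes were lower more often than higher. Of 715 tested TEC loci, which the annotation does not yet treat as established genes, 466 were higher and 24 lower with propranolol (median log2 change 1.16). Of 707 antisense genes 403 were higher and 51 lower (median 0.90), and of 82 sense intronic genes 61 were higher and 1 lower (median 1.23). The 609 lincRNA genes had 287 higher and 83 lower, with a median of 0.69 under TMM that turned to -0.03 under resident scaling. Antisense genes took 0.156 to 0.181% of the counts with propranolol and 0.0878 to 0.115% in untreated lungs, and sense intronic genes took 0.0282 to 0.0348% with propranolol and 0.0104 to 0.0165% in untreated lungs. The nuclear RNAs Malat1 and Neat1 rose by 1.72 and 1.97 log2 units, and Xist, made from the inactive X chromosome, by 1.65. Processed pseudogenes had 85 higher and 193 lower of 533 (median -0.46), a sign that turned under melanocyte scaling. The strand setting of the counting is not known, so reads of an antisense gene and of its partner may be mixed.

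Long protein-coding genes were higher more often than short ones. With protein-coding genes in 5 groups by transcript length, 37.7% of the 3030 longest were higher and 34.0% lower, with a median log2 change of 0.05. Of the 3030 shortest, 26.8% were higher and 48.1% lower (median -0.27). The medians of the groups between them ran in the order of length. All 5 medians were negative under resident scaling and positive under melanocyte scaling.

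Centromere proteins had the lowest median of the classes, followed by tubulins. Centromere proteins, which hold chromosomes to the spindle, had 19 of 21 lower and none higher (median -1.16 under TMM, although 1.07 when scaled on the melanocyte list). Cenps had 3.79, 2.95, 1.77, 1.19 and 4.53 CPM with propranolol, against 10.5, 8.90, 7.03, 8.69 and 9.58 CPM in untreated lungs. The treated libraries kept the order of their melanocyte shares. Cenpx, its partner in a DNA-binding complex, averaged 20.5 ± 1.2 CPM with propranolol and 26.2 ± 1.3 CPM in untreated lungs (SD, n = 5 each). With the melanocyte covariate the median of this class was -0.12 and none of its 21 genes was called. Tubulins had 12 of 15 lower (median -1.13, 1.27 on the melanocyte scale). Tuba1a had 154, 143, 138, 142 and 155 CPM with propranolol, against 272, 236, 222, 250 and 258 CPM in untreated lungs. Tubb2b, a tubulin of neural tissue, averaged 5.17 ± 1.43 CPM with propranolol and 17.4 ± 5.5 CPM in untreated lungs (SD, n = 5 each). Tubb3, another neural tubulin, averaged 27.3 ± 20 CPM with propranolol and 95.2 ± 12.1 CPM in untreated lungs (SD, n = 5 each). Tubb1, the tubulin of platelets, went the other way with 11.3 ± 2.7 CPM with propranolol and 2.72 ± 1.08 CPM in untreated lungs, and rose beyond the resident list by 1.35 log2 units; 6 of 7 tested genes of the platelet list rose beyond it too. Tuba8 and Tubb4a were higher by 0.88 and 0.75 log2 units. Histone genes, most of whose transcripts lack a poly(A) tail, had 25 of 35 lower and 2 higher (median -0.74, 1.83 on the melanocyte scale). Hist1h1d, a linker histone, averaged 0.330 ± 0.109 CPM with propranolol and 2.07 ± 0.89 CPM in untreated lungs, and H2afv, a variant made in all cells, 40.2 ± 1.0 and 56.5 ± 3.0 CPM in the same order (SD, n = 5 each).

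Subunits of complex I, ATP synthase and cytochrome c oxidase were mostly lower, and the other complexes of the respiratory chain were not examined as classes. Of 39 tested genes of the class of complex I, which takes electrons from NADH, 38 were lower and none higher (median -0.84). The exception was Ndufa4l2 (log2 change 0.19, adjusted p = 0.356). The class was set by symbol stems, and Ndufa4l2 is not an established subunit of complex I. Ndufb11 averaged 64.3 ± 4.3 CPM with propranolol and 105.5 ± 9.4 CPM in untreated lungs, and Ndufc2 46.2 ± 5.2 and 81.4 ± 7.3 CPM in the same order (SD, n = 5 each). Of 17 ATP synthase subunits 16 were lower (median -1.01), and Atp5k had 16.1, 12.4, 12.2, 12.9 and 14.8 CPM with propranolol, against 29.0, 27.8, 25.3, 31.0 and 31.9 CPM in untreated lungs. Atp5e was lower by 1.02 log2 units. Of 16 cytochrome c oxidase subunits 12 were lower (median -0.999), and Cox6b1 averaged 56.2 ± 7.1 CPM with propranolol and 112 ± 13 CPM in untreated lungs (SD, n = 5 each). Cox4i2, a lung form of its subunit, and Cox6b2, a testis form, were higher by 0.65 and 1.17 log2 units. Of 22 genes of mitochondrial protein import 20 were lower (median -0.84); Tomm34 and Timm21 did not pass the test, while Tomm7 and Tomm22 of the outer membrane pore were lower by 0.87 and 0.89 log2 units. On the melanocyte scale the medians of these 4 classes were positive, from 1.47 to 1.66, so none of them fell as far as the melanocyte genes. With the melanocyte covariate their medians were -0.38 to -0.50, and 16 complex I, 8 ATP synthase, 7 cytochrome c oxidase and 4 import genes were still lower by the test. Cytosolic ribosomal proteins were lower in 80 of 82 genes (median -0.69) and mitochondrial ribosomal proteins in 73 of 76 (median -0.73), with Rps4l the single one higher; both medians were positive on the melanocyte scale (1.84 and 1.78).

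**Figure D4:**
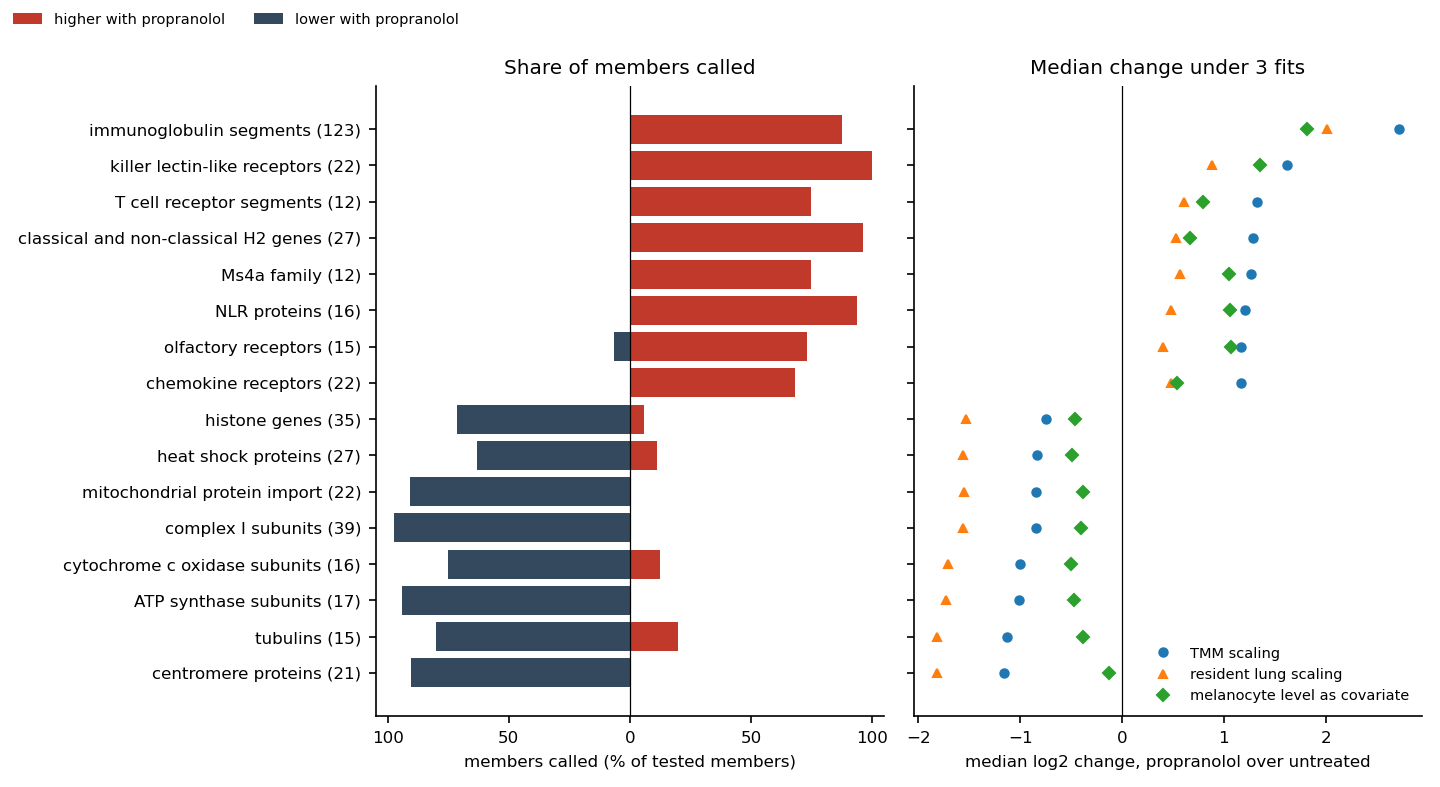
The 8 classes with the highest and the 8 with the lowest median log2 change among those with at least 10 tested members (number tested in brackets). Left, share of members higher (right of 0) and lower (left of 0) with propranolol by the test; right, the median log2 change, propranolol over untreated, under TMM scaling, resident lung scaling and with the melanocyte level as a covariate. The 8 upper classes stay above 0 and the 8 lower ones below 0 under these 3 fits, while scaling on the melanocyte list, not drawn, puts all 16 above 0.

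Chaperones, which fold newly made proteins and respond to stress, were among the lower families. Of 27 heat shock protein genes 17 were lower and 3 higher (median -0.84, 1.60 on the melanocyte scale). With the melanocyte covariate 13 were still lower by the test, the largest share among the 8 lowest classes. Hsph1, a large partner of the HSP70 machine, had 55.9, 45.1, 58.7, 52.5 and 67.9 CPM with propranolol, against 243, 211, 149, 170 and 180 CPM in untreated lungs. The treated libraries did not follow their melanocyte shares here. The change was -1.77 ± 0.14 under TMM (adjusted p = 3.55e-05), and -1.56 with the covariate (adjusted p = 0.00745). The stress-inducible Hspa1b averaged 6.59 ± 2.45 CPM with propranolol and 40.0 ± 15.8 CPM in untreated lungs, Hspa1a 3.15 ± 1.20 and 9.84 ± 2.87 CPM, and Hsp90aa1 362 ± 122 and 1470 ± 451 CPM in the same order (SD, n = 5 each). Hspb1, a small heat shock protein, averaged 39.3 ± 6.7 CPM with propranolol and 201 ± 151 CPM in untreated lungs. Hspa1a and Hspa1b are near-identical copies, so their reads may be split. Hspa12a, Hspa12b and Hspb8 were higher by 1.02, 0.58 and 0.42 log2 units, and Hspa4l, Hspa2 and Hspb6 did not pass the test. The endoplasmic reticulum chaperones Hspa5, Hsp90b1 and Hspa13 were lower by 0.93, 0.73 and 0.73 log2 units. Of 9 subunits of the cytosolic chaperonin 8 were lower, and Cct6b, a testis form, was higher.

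Promoter sequences were taken from RefSeq (GRCm38.p6, a window around each gene's start site). A heat shock element, here GAA, any 2 bases, TTC, any 2 bases and GAA, or the same with TTC, GAA and TTC, read on both strands with overlapping matches counted, was found in 4 of 63 chaperone genes with a promoter in the table (6.35%), against 0.518% of 12749 tested genes and 0.662% of all promoters. All 4 were lower with propranolol, with a median of -1.74, against 33 of 59 lower and a median of -0.25 among those without it. Over all 66 tested genes with the element, 31.8% were higher and 51.5% lower (median -0.26), against 32.3% and 39.6% of the 12749. It was in 0.917% of the genes that rose beyond the resident list. They are shown because they are the chaperone genes that hold the element, which capitals mark. Hspe1 and Hspd1, the mitochondrial chaperonin pair, share 1 promoter read on opposite strands, so they are not separate cases.
Hsph1, chr5:149636287-149636320, minus strand: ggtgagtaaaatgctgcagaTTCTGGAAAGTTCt
Hspe1, chr1:55088039-55088096, plus strand: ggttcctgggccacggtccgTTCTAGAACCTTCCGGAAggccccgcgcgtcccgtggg
Hspd1, chr1:55088039-55088096, minus strand: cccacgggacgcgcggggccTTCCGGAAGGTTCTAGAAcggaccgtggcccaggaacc
Dnajb6, chr5:29735832-29735884, plus strand: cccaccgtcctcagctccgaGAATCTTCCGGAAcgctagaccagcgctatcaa
Hspe1 averaged 57.2 ± 21.4 CPM with propranolol and 205 ± 54 CPM in untreated lungs, and Hspd1 170 ± 82 and 561 ± 129 CPM in the same order (SD, n = 5 each). Dnajb6, a J-domain chaperone, had the smallest change of the 4, -0.35 ± 0.07. Scaled on the melanocyte list all 4 had positive changes, 0.45 to 2.29.

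Other motifs were searched in the same promoters. The cyclic AMP response element TGACGTCA, the site of the CREB factors downstream of β-adrenoceptors, was in the promoter of 415 tested genes. Of these 23.1% were higher and 47.7% lower (median -0.21), against 32.3% higher and 39.6% lower among all 12749 genes with a promoter (median -0.06). The element was in 3.92% of the lower genes and in 2.33% of the higher ones. The E2F site (TTTGGCGC or TTTCGCGC) was in 202 genes, of which 57.9% were lower, and the NRF1 site, spelled by the capitals of the Atp5k promoter, in 249, of which 58.6% were lower. The core of the interferon-stimulated response element (GAAA, any 2 bases, GAAAC) was in 135 genes, of which 49.6% were higher and 28.1% lower (median 0.30). Of 68 genes with the kappa B site, 38.2% were higher and 27.9% lower. The C/EBP-ATF element (TTGCATCA) was in 94 genes, of which 39.4% were higher and 33.0% lower (median 0.18). The CLEAR element was in 85 genes (22.4% higher, 49.4% lower), the M-box (TCATGTGA or TCACATGA) in 126 (29.4% higher, 44.4% lower) and the serum response element in 31 (32.3% higher, 29.0% lower). Both strands were read, and the medians are those under TMM. Over all promoters in the table, 2.03% held the cyclic AMP element, 0.929% the E2F site, 1.07% the NRF1 site and 0.944% the interferon-stimulated core. A match is a run of letters and not a measured binding site. Of the genes with each motif and a called change, the one with the smallest p in its direction is shown, with both directions for the cyclic AMP response element; capitals mark the motif.
Csf2ra, chr19:61228483-61228530, minus strand, cyclic AMP response element: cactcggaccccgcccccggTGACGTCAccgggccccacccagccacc
Emc10, chr7:44496554-44496601, minus strand, cyclic AMP response element: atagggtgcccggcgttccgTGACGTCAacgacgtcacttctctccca
Atp5k, chr5:108434420-108434469, minus strand, NRF1 site: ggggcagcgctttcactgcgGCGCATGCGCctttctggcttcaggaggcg
Vti1b, chr12:79172492-79172539, minus strand, E2F site: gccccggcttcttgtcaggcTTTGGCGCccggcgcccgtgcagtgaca
Apobec3, chr15:79892247-79892297, plus strand, interferon-stimulated core: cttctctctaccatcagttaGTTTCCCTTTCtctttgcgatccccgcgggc
Csf2ra, a chain of the GM-CSF receptor, averaged 86.8 ± 7.4 CPM with propranolol and 41.7 ± 4.8 CPM in untreated lungs, and Apobec3, an antiviral deaminase, 84.3 ± 14.01 and 31.1 ± 5.4 CPM in the same order (SD, n = 5 each). Emc10, a subunit of a membrane protein insertase, fell by 0.53 and Vti1b, a vesicle fusion protein, by 0.59 log2 units.

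Classes in which genes were called in both directions were also examined. Over all tested genes 35.5% were higher and 35.3% lower, so an even split is near the background. The proteasome, which degrades proteins, had 41 of 48 subunits lower and 5 higher (median -0.73, 1.81 on the melanocyte scale). The higher ones included the interferon-inducible catalytic subunits: Psmb8 averaged 57.3 ± 9.7 CPM with propranolol and 33.7 ± 4.6 CPM in untreated lungs, Psmb9 47.3 ± 9.5 and 22.6 ± 3.3 CPM, and Psmb10 64.1 ± 5.3 and 54.7 ± 3.4 CPM in the same order (SD, n = 5 each). Their constitutive counterparts were lower, with Psmb5 at 29.8 ± 4.1 CPM with propranolol and 55.0 ± 6.1 CPM in untreated lungs, Psmb6 at 76.9 ± 11.7 and 131 ± 11 CPM, and Psmb7 at 54.1 ± 9.8 and 107 ± 9 CPM. Of the inducible subunits only Psmb9 rose beyond the resident list (0.32 ± 0.13, adjusted p = 0.0402), and under that scaling Psmb10 was lower (-0.51, adjusted p = 0.0119). Psme1 and Psme2, the interferon-inducible regulator, did not pass the test.

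Of 13 tested cathepsins, the lysosomal proteases, 6 were higher (46.2%) and 5 lower (38.5%), shares near those of all tested genes. Ctsw, a cathepsin of NK and cytotoxic T cells, had 6.97, 9.28, 8.91, 9.74 and 5.38 CPM with propranolol, against 1.81, 2.25, 2.38, 2.17 and 1.69 CPM in untreated lungs, and rose beyond the resident list. Ctsz fell to 241, 187, 157, 162 and 235 CPM with propranolol, against 457, 551, 342, 365 and 354 CPM in untreated lungs. Ctsb averaged 701 ± 164 CPM with propranolol and 1480 ± 452 CPM in untreated lungs, and Ctsd 391 ± 93 and 773 ± 161 CPM, whereas Ctss, a cathepsin of antigen-presenting cells, averaged 201 ± 15 and 142 ± 31 CPM in the same order (SD, n = 5 each).

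Sox transcription factors were 6 higher and 6 lower of 14 (42.9% each), again near the shares of all tested genes. Sox17 and Sox18 of endothelium averaged 64.5 ± 20.2 and 113 ± 27 CPM with propranolol and 31.3 ± 6.1 and 70.0 ± 15.7 CPM in untreated lungs. Sox10, a gene of the melanocyte list, averaged 127 ± 94 CPM with propranolol and 492 ± 68 CPM in untreated lungs, and Sox9 4.63 ± 2.60 and 24.5 ± 10.8 CPM in the same order (SD, n = 5 each). Sox4 was lower by 0.52 ± 0.07. Under resident scaling Sox17 and Sox18 did not pass the test, and Sox13 alone of the class rose beyond it. The MAP kinase cascade had 17 higher (35.4%) and 21 lower (43.8%) of 48, also near those shares. Map3k8, a kinase of Toll-like receptor signalling, rose beyond the resident list by 0.49 ± 0.14 and Map4k2 did as well, while Map2k1, the kinase MEK1, averaged 93.7 ± 13.8 CPM with propranolol and 178 ± 18 CPM in untreated lungs (SD, n = 5 each). The class of SWI/SNF chromatin remodelling genes was set by symbol stems and takes in Arid genes, such as Arid3b, that are not subunits of the complex. With like shares, it had 8 higher of 23, among them Smarca2 (0.56) and Arid3b (1.14 ± 0.17). It had 10 lower, among them Smarce1 (-0.54 ± 0.07). The medians of the MAP kinase and SWI/SNF classes were -0.02 and -0.09 and both changed sign when genes under 5 CPM were left out.

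Axonemal dyneins and Cfap proteins, the parts of motile cilia, had 38 of 48 higher (79.2%) and 7 lower (14.6%), with a median of 1.05. Over all tested genes 35.5% were higher and 35.3% lower. Of the 48, 18 rose beyond the resident list (37.5%, against 9.89% of all tested genes), and 9 were lower under resident scaling. With the melanocyte covariate 1 was higher and 1 lower by the test. Dnah6 averaged 57.7 ± 17.2 CPM with propranolol and 19.1 ± 6.9 CPM in untreated lungs, and Cfap54 went the other way with 48.1 ± 22.2 CPM with propranolol and 103 ± 21 CPM in untreated lungs (SD, n = 5 each). The fitted medians of all classes with and without the melanocyte covariate are set against each other in a plot. The 8 highest classes had medians of 1.17 to 2.72 without the covariate and 0.54 to 1.82 with it. Among them NLR proteins had 1.06 with the covariate against 1.21 without it, and H2 genes 0.67 against 1.29. By the test with the covariate, 41 of 123 immunoglobulin segments, 5 of 22 killer lectin-like receptors and 13 of 27 H2 genes were higher. So were 6 of 12 Ms4a genes, 7 of 16 NLR genes, 4 of 22 chemokine receptors and 2 of 15 olfactory receptors. None of the 12 T cell receptor segments was called. The 8 lowest had -1.16 to -0.74 without it and -0.50 to -0.12 with it. Among these, centromere proteins had -0.12 with the covariate against -1.16 without it, and heat shock proteins -0.49 against -0.84.

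**Figure D5:**
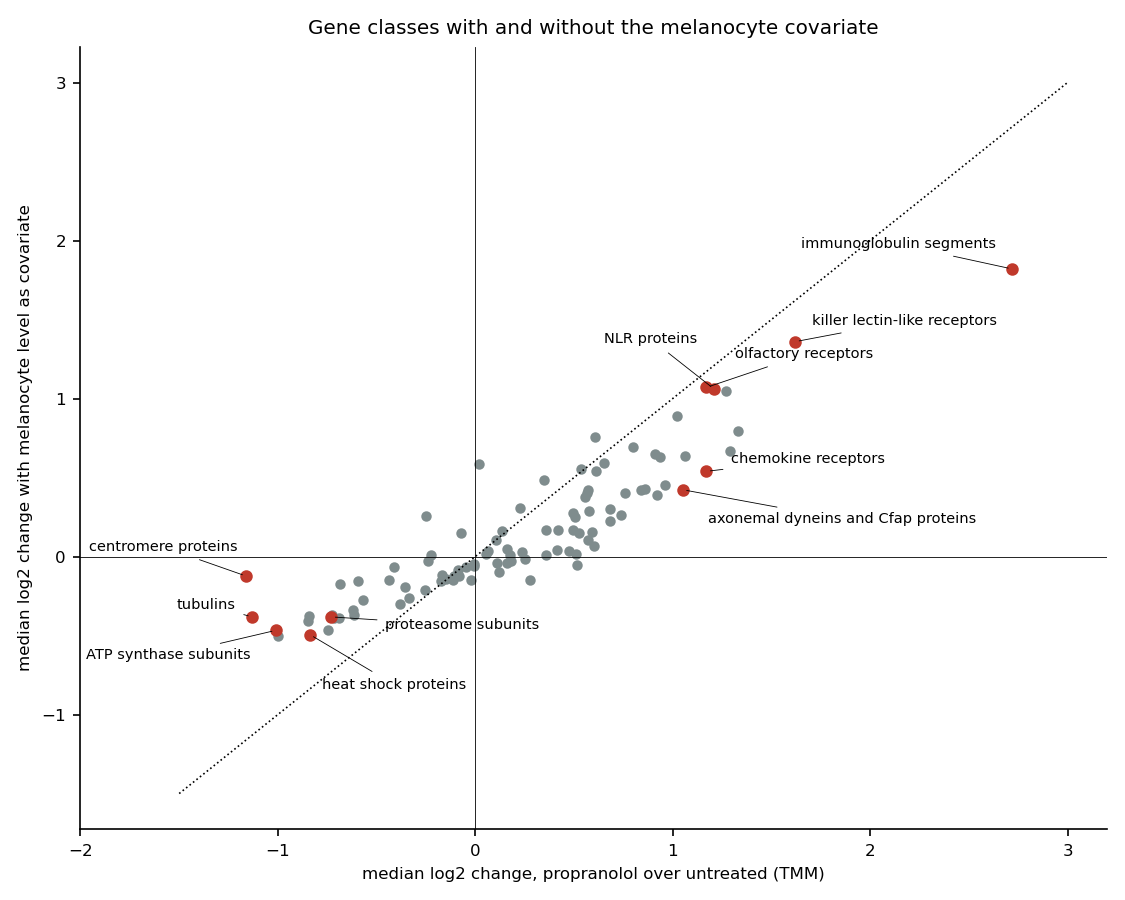
Median log2 change, propranolol over untreated, of each class with at least 10 tested members under TMM scaling (horizontal axis) and in the fit with the melanocyte covariate (vertical axis); each point is a class and the dotted line marks equal values. Centromere proteins and tubulins lie well above the line, at -0.12 and -0.38 on the vertical axis. NLR proteins and olfactory receptors lie close to the line, and chemokine receptors lie below it.

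The 15 genes named above as falls or rises were also measured in 8 libraries labelled lung monocytes from the same study. The genes were chosen by the p of their change in the same lung libraries, so the log2 change in lung minus that in these libraries, from 1 fit with 4 groups, is given as a description. It was -5.84 to -3.76 for the 8 that fell and 1.13 to 2.37 for the 7 that rose. Bpifa1 was abundant there, with 717 ± 152 CPM with propranolol and 565 ± 19 CPM in untreated libraries (SD, n = 4 each), and its difference of change was -4.85 ± 0.90. Bpifb1 averaged 110 ± 11 CPM with propranolol and 135 ± 4 CPM in untreated libraries, and Reg3g 36.8 ± 6.7 and 37.5 ± 3.4 CPM in the same order (SD, n = 4 each). None of the 8 genes that fell in lung was called in these libraries. Mgarp, Myh6, Nts, Aire and Sprr1a were low there, with group means of 0.93 to 1.76 CPM. The SE of their log2 changes was 0.42 to 1.17, so a missing call says little for them. Of the 7 that rose, BE692007, Mirt1, H2-Ob, Siglecg and Bank1 were also higher there, by 0.59 to 1.08 log2 units, and less than in lung by 1.13 to 2.12. Nlrp1b and Arhgap4 did not pass the test there. Replicates 1 and 2, and 3 and 4, of each such group were closer to each other (chi-square per degree of freedom 3.52 to 5.22) than the other pairs were (12.2 to 35.4).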

How the data were processed

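Gene counts of 10 whole lung libraries were analysed, with 8 libraries labelled monocytes for the test of a difference. Per the labels, cDNA was made with poly(dT) primers. The authors deposited raw counts per gene, and per the submitters' processing notes STAR 2.7.9, featureCounts and Subread 2.0.3 were used with the GRCm39 build; the strand setting is not stated there. Symbols were found for 52083 of 55416 genes.

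Genes with enough counts (edgeR's filterByExpr, minimum count 10) were tested with edgeR 4.0.16 in R 4.3.3: TMM scaling, the quasi-likelihood test over all 18639 genes and Benjamini-Hochberg adjustment at 0.05. The same test was run with libraries scaled on the melanocyte list, on the resident lung list, and with the melanocyte level as a covariate. limma 3.58.1 and DESeq2 1.42.0 gave alternatives. The test was checked on simulated data, in which false calls exceeded the share the threshold allows, under TMM and more so on the melanocyte scale. The simulation lowered the melanocyte list equally in all treated libraries, unlike these data. It therefore cannot show how often falls beyond the list were missed here. No 2 lung libraries of a group agreed within sampling noise (chi-square per degree of freedom 9.19 to 191).

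The members, lists and classes were chosen with earlier results of these data known. Named genes were the 8 with the smallest p among falls and among rises beyond the lists (mean at least 1 CPM, unnamed loci and receptor segments left out), members of the 8 highest, 8 lowest and 4 most divided classes, and 7 identity markers; 1 of the rises and 1 adrenoceptor gene are not reported here. Other genes, among them the adrenoceptors, the proteasome and the remaining falls, were named after their values were seen. Classes were set by symbol stems, with described pseudogenes included. Stems were corrected after values were seen, which changed 26 classes and dropped 35 symbols; the largest shift of a class median was 0.47, and by the first stems proteasome subunits stood among the 8 lowest classes in place of histone genes. Promoter motifs were searched in RefSeq sequences (GRCm38.p6) of 12749 tested genes. Promoters shown were those of the called genes with the smallest p and a mean of at least 1 CPM.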

Additional observations from a re-analysis of the deposited data

Results flagged for a closer look

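Among 136 groups of 5 libraries, for 68 genes, a library stood far from the others of its group in 11, where chance alone gives about 1 in 20 groups. Propranolol library 5, the treated library with the highest melanocyte share, was that library for 6 genes. It was high for Myh6 (9.111 CPM), Mb (0.4012 CPM), Cck (0.09441 CPM, the others at 0) and Hist1h1d (0.5193 CPM), and low for Bank1 (9.984 CPM) and Trac (5.004 CPM). Propranolol library 1 was high for Gm2546, with 0.09328 CPM from 3 counts. Among untreated libraries, library 2 was high for Nts (6.326 CPM), Sprr1a (13.96 CPM) and Chl1 (24.2 CPM), and library 4 was high for Myh6 (86.44 CPM).

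For 15 of 15 genes tested, the log2 change in whole lung minus that in the libraries labelled monocytes differed from 0 by the test of that difference (edgeR's quasi-likelihood test, adjusted over all genes tested). The genes were chosen by their change in the same lung libraries, so this outcome is no support for a difference. It was -5.84 for Reg3g, -5.18 for Nts, -4.85 for Bpifa1, -4.51 for Bpifb1, -4.20 for Aire, -4.16 for Sprr1a, -3.86 for Mgarp and -3.76 for Myh6. Among the genes that rose it was 2.37 for Nlrp1b, 2.12 for Siglecg, 2.11 for Mirt1, 1.96 for BE692007, 1.88 for Arhgap4, 1.43 for Bank1 and 1.13 for H2-Ob.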

How the results depend on the processing

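The count of genes changed, 13189, was 13343 with limma-voom, 13318 with no filter, 9238 among genes of at least 5 CPM, 13170 with DESeq2 size factors and 13610 with DESeq2's test, and 12118 to 13439 with a library left out. It was 2167 with the melanocyte covariate, in which Myh6 (0.70), Dct (0.19) and Mlana (0.0885) turned positive; the groups do not overlap in that covariate. The 16 falls beyond the melanocyte list became 27 with no filter and 6 at 5 CPM, and 13 to 31 with a library left out, 31 without propranolol library 4. With the list cut to 4 genes, summed, or without Bcan (the last added after seeing the data) 12 remained. The 1843 rises beyond the resident list became 716 at 5 CPM, where fewer genes are tested, 1346 on endothelial markers alone, and 1615 to 2025 with a library left out. The 15 differences from the monocyte-labelled libraries became 14 to 15 with a library left out, 14 with close monocyte-labelled libraries summed (without Myh6) and 14 under resident scaling (without H2-Ob). Of 98 classes, 60 had a median above 0 under TMM, 19 under resident scaling, which moves the median of all genes to -0.72. Replicate numbers did not pair the libraries (correlations of same-numbered deviations -0.0527 to 0.37, with only libraries 1 and 3 closest to their own number). With the replicate block 12998 genes were called, with 15 falls and 1687 rises. Where no cause is given, the cause was not tested.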
